A study of Homo sapiens with 6 samples.

Results

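The transcripts of the MYC-MAX-MXD network were followed in NALM6, a human cell line of B-cell acute lymphocytic leukemia, by RNA-SEQ. The network was taken as 10 listed genes, MYC, MAX, MXD1, MXD3, MXD4, MXI1, MNT, MLX, MGA and MYCBP, out of the 57905 genes in the count table, and all 10 were found there by gene identifier. Of the 6 libraries, 3 came from cells given the solvent DMSO and the others from cells given 500 nM of THZ1, a covalent inhibitor of CDK7, with 24 h of exposure in both arms and no other treatment or genetic change named. The data therefore describe 1 cell line at 1 dose and 1 time, and since separate cultures are not stated, p-values cover the spread between these libraries, which may be technical.

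MYC is a basic helix-loop-helix leucine zipper protein that binds DNA as a dimer with MAX at the E-box, the palindrome CACGTG, and activates genes of growth and metabolism. MXD1, MXD3, MXD4, MXI1 and MNT also pair with MAX at E-boxes but bring the SIN3-HDAC corepressor, so they oppose MYC. MAX is the shared partner, MLX is a MAX-like partner for the glucose-sensing Mondo proteins, MGA joins MAX in a Polycomb complex named PRC1.6, and MYCBP binds MYC without being part of the dimers.

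After THZ1, MYC fell while 3 of its 5 opponents rose. MXD1, MXD4 and MNT rose, with fold changes of 12.5, 4.34 and 2.48, while MYC fell to 0.135 of its DMSO level. MGA, MYCBP and MAX also fell, the last by little, and MXD3, MXI1 and MLX were not called. All 10 genes passed the filter on low counts; 3 passed the test as higher and 4 as lower. The test was the quasi-likelihood F test of edgeR, with p-values adjusted by Benjamini-Hochberg over 16622 genes and called under 0.05; changes are log2 values of THZ1 over DMSO, each with its standard error (SE). Calls were common in these data: 84.5% of all genes tested were called, 43.5% higher and 41.1% lower, so the 7 called members are no more than the background share. Past a log2 fold change of 1.5 lay MXD1 and MXD4 among the higher members and MYC among the lower, against 24.6% and 12.9% of all genes. The libraries of the treatments did not overlap for 7 members, against 84.7% of all genes. The median log2 fold change was −0.08 over the members and 0.03 over all genes tested.

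The libraries held 11015480 to 11164840 counts with DMSO and 7876402 to 8314306 with THZ1. Levels are given as CPM, counts scaled to a common library size by TMM, which are relative to the library and cannot tell a change of 1 gene from a change in RNA per cell. The 11 B-lineage markers were all detected, with summed levels of 4005 to 4165 CPM with DMSO and 2116 to 2187 CPM with THZ1. The 5 T cell markers matched summed to at most 0.969 CPM, with CD8A at 0 counts. The 6 myeloid markers summed to 12.7 to 14.5 CPM with DMSO and 16.6 to 20.1 CPM with THZ1, the 5 erythroid markers to 0.164 to 0.253 and 3.61 to 3.81 CPM, and the 4 stromal and epithelial markers to 3.11 to 4.47 and 15.7 to 16.1 CPM, with KRT18 at 0 counts. Most of the last sums came from 1 gene each, ALAS2 (3.09 CPM with THZ1) and COL1A1 (15.7 CPM). The myeloid sum hides moves both ways: of 5 markers tested, 2 (40.0%) were higher and 2 (40.0%) lower, beside 43.5% and 41.1% of all genes. The 2 higher ones passed the filter on low counts only through their THZ1 libraries, where they are higher. A lower one passed only through its DMSO libraries, so these calls are given as values only. Mitochondrial genes took 4.32% to 4.37% of the counts with DMSO and 12.6% to 13.6% with THZ1, and the part of this share and of the marker sums in the results on the members was not tested.

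**Figure D1:**
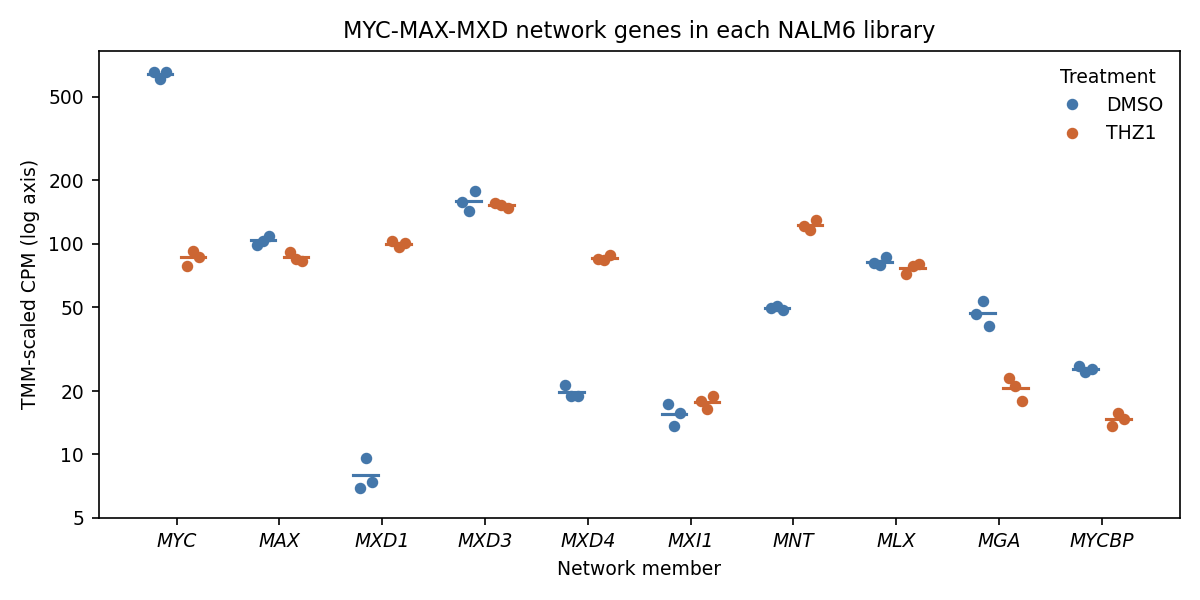
Level of each network gene in each library, in TMM-scaled CPM on a log axis, with DMSO in blue and THZ1 in orange; points are libraries and bars are means of 3. MYC drops from 608 CPM or more to 92.6 CPM or less, MXD1, MXD4 and MNT move up without overlap, and MXD3, MXI1 and MLX overlap between treatments.

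MYC lies on chromosome 8 from 128747680 to 128755197 (GRCh37, plus strand). Its level was 652, 608 and 657 CPM in the DMSO libraries and 78.6, 92.6 and 87.0 CPM in the THZ1 libraries. All THZ1 libraries were thus far below all DMSO libraries, and the spread within a treatment was small beside the gap. The log2 change of MYC was −2.89 ± 0.08 (SE; edgeR adjusted p = 3.15e-25), lower than that of all but 1.88% of the genes tested. The non-coding gene CASC11, which shares 194 exonic bases with MYC on the opposite strand, held 0, 2 and 0 counts with DMSO and 4, 0 and 2 with THZ1, so reads assigned to it were few. PVT1, the non-coding gene that neighbours MYC, went the other way, from 17.3 ± 0.885 CPM to 50.8 ± 3.65 CPM (SD, n = 3), or 1.55 ± 0.10 on the log2 scale (SE; edgeR adjusted p = 5.05e-15). The other MYC genes were low: MYCN had 0 counts in all 6 libraries, where 3 counts are at most 0.415 CPM, and MYCL, at 1.36 CPM with DMSO and 1.62 CPM with THZ1, was not called (edgeR adjusted p = 0.561).

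MAX, the common dimer partner, lies on chromosome 14 from 65472892 to 65569413 (minus strand). It had 98.8, 103 and 109 CPM with DMSO and 91.4, 85.0 and 83.0 CPM with THZ1. The treatments did not overlap, but the step between the lowest DMSO and the highest THZ1 library was small. The small log2 change of −0.26 ± 0.08 (SE; edgeR adjusted p = 0.00224) varied with the scaling, and with upper quartile factors it was −0.07 with an adjusted p of 0.399. FNTB shares 822 exonic bases with MAX on the opposite strand, at 6.04 CPM with DMSO and 6.44 CPM with THZ1, CHURC1-FNTB shares 623, at 0 counts, and ENSG00000259118 shares 184, at 21.7 and 26.3 CPM.

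MXD1, MXD4 and MNT, the opponents that rose, and MLX are shown by their promoters, since E-boxes in promoters are where the network's dimers bind. The RefSeq promoter windows (GRCh38.p14, 250 bases before each start and 50 after, read on the gene's strand) covered 9 of the 10 members, all but MYC. The search was for CACGTG, a palindrome that reads the same on both strands, and matches are in capitals. MXD4 (chr4:2262060-2262359, minus strand), MNT (chr17:2401011-2401310, minus strand) and MLX (chr17:42566850-42567149, plus strand) held 1 match each, and MXD1 (chr2:69914859-69915158, plus strand) held none.
MXD4: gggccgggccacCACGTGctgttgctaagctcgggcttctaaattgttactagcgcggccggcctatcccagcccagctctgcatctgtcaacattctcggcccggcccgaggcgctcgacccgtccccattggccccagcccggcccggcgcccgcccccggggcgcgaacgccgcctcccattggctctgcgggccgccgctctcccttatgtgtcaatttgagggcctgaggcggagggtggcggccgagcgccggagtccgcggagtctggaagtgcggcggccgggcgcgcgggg
MNT: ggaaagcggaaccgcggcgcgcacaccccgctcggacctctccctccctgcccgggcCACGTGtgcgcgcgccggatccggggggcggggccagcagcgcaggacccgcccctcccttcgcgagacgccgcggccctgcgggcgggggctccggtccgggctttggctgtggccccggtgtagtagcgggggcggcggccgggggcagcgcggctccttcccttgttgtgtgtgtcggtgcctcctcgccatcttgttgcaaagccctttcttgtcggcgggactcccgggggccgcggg
MLX: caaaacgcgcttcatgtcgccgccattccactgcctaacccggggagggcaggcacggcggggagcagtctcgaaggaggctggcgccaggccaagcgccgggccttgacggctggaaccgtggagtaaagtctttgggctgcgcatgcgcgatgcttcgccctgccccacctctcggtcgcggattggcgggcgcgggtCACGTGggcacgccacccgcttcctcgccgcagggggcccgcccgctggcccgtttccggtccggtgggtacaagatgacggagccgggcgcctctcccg
MXD1: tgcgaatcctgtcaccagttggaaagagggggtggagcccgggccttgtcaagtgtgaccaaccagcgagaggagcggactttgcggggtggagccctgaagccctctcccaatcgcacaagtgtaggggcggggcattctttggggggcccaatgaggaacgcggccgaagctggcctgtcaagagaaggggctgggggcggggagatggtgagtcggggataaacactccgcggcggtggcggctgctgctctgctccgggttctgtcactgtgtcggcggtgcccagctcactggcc
The first base of the match lies at −238 from the start in MXD4, −193 in MNT and −50 in MLX. Of all 35116 promoter windows, 7.26% held the hexamer, and by gene 8.77% did, against 3 of the 9 members. The matches are a description of the letters only, and binding was not measured.

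MXD1, also known as MAD1 and typical of differentiating cells, rose the most of the 10 members. It lies on chromosome 2 from 70124820 to 70170077 (GRCh37, plus strand). Its level was 6.95, 9.59 and 7.43 CPM with DMSO and 103, 96.8 and 101 CPM with THZ1. The member with the fewest counts under DMSO thus had more CPM than MAX in each THZ1 library. On the log2 scale this was 3.65 ± 0.11 (SE; edgeR adjusted p = 7.19e-24), above that of 88.8% of the genes tested. SNRNP27 shares 237 exonic bases with MXD1 on the same strand and changed far less, by 0.49 on the log2 scale, from 22.8 to 32.0 CPM.

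MXD4, on chromosome 4 from 2249159 to 2263836 (minus strand), is a family member found in quiescent cells. It had 21.4, 18.9 and 18.9 CPM with DMSO and 84.3, 84.2 and 88.4 CPM with THZ1, with no overlap, and rose by 2.12 ± 0.09 (SE; edgeR adjusted p = 1.18e-19). MNT, on chromosome 17 from 2287367 to 2304398 (minus strand), is the broadly expressed opponent and the largest of the MXD-like repressors. Its level was 49.4, 50.5 and 48.3 CPM with DMSO and 121, 117 and 130.2 CPM with THZ1. The DMSO libraries were nearly alike and all THZ1 libraries lay well above them, for a rise of 1.31 ± 0.08 (SE; edgeR adjusted p = 3.83e-16). A non-coding gene, ENSG00000262456, shares 1065 exonic bases with MNT on the opposite strand, at 15.9 CPM with DMSO and 19.96 CPM with THZ1.

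The other 2 opponents, MXD3 and MXI1, were not called. MXD3, a member linked to proliferating cells that lies on chromosome 5 from 176728462 to 176739758 (minus strand), had 158, 142 and 178 CPM with DMSO and 156, 153 and 148 CPM with THZ1. The THZ1 libraries all lay inside the range of the DMSO libraries, and the difference was −0.07 ± 0.08 (SE; edgeR adjusted p = 0.425). Without DMSO replicate 2, the lowest, it was −0.16 with an adjusted p of 0.025. It was 0.13 under upper quartile factors and −0.31 when only library sizes were used, where MXD3 was called lower (edgeR adjusted p = 0.000294). PRELID1, at 188 CPM with DMSO and 224 CPM with THZ1, shares 1148 exonic bases with MXD3 on the opposite strand, and RAB24, at 1.74 and 5.35 CPM, shares 926 on the same strand, so some reads of these genes could be exchanged. MXI1, on chromosome 10 from 111967363 to 112047123 (plus strand), had 17.4, 13.6 and 15.8 CPM with DMSO and 18.0, 16.5 and 19.0 CPM with THZ1, which overlap. Its difference was 0.19 ± 0.13 (SE; edgeR adjusted p = 0.17), and its sign hung on the scaling. It was −0.05 when only library sizes were used and 0.39 under upper quartile factors, where it was called (edgeR adjusted p = 0.00817).

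MGA and MLX are the other dimer members. MGA, a giant protein with a T-box besides its helix-loop-helix, lies on chromosome 15 from 41913332 to 42065279 (plus strand). It had 46.3, 53.5 and 40.5 CPM with DMSO and 23.1, 21.2 and 17.9 CPM with THZ1. Every THZ1 library was below every DMSO library, although the DMSO libraries varied more than for MYC or MNT, and the log2 change was −1.17 ± 0.12 (SE; edgeR adjusted p = 7.04e-11). MLX, on chromosome 17 from 40719090 to 40725257 (plus strand), had 80.9, 79.1 and 86.8 CPM with DMSO and 71.9, 78.5 and 79.9 CPM with THZ1. These overlap, and the difference of −0.10 ± 0.08 (SE) was not called (edgeR adjusted p = 0.239). The difference was 0.09 under upper quartile factors and −0.35 when only library sizes were used, where MLX was called lower (edgeR adjusted p = 0.000183). PSMC3IP, which shares 775 exonic bases with MLX on the opposite strand, rose from 41.9 to 94.2 CPM. Among the Mondo partners of MLX, MLXIP (MondoA) fell slightly from 256 to 224 CPM (−0.20 ± 0.07, SE; edgeR adjusted p = 0.0101), and MLXIPL (ChREBP) had 2 counts over the 6 libraries together. The call of MLXIP was lost with upper quartile factors, so its small change hung on the scaling. ARRDC4, a Mondo target, rose from 3.15 to 8.46 CPM (1.42 ± 0.23, SE; edgeR adjusted p = 1.01e-06).

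MYCBP, on chromosome 1 from 39328165 to 39339040 (minus strand), encodes a small protein that binds the amino-terminal part of MYC. Its level was 26.3, 24.6 and 25.5 CPM with DMSO and 13.7, 15.8 and 14.7 CPM with THZ1. The treatments did not overlap, and MYCBP changed by −0.79 ± 0.12 (SE; edgeR adjusted p = 4.7e-07).

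**Figure D2:**
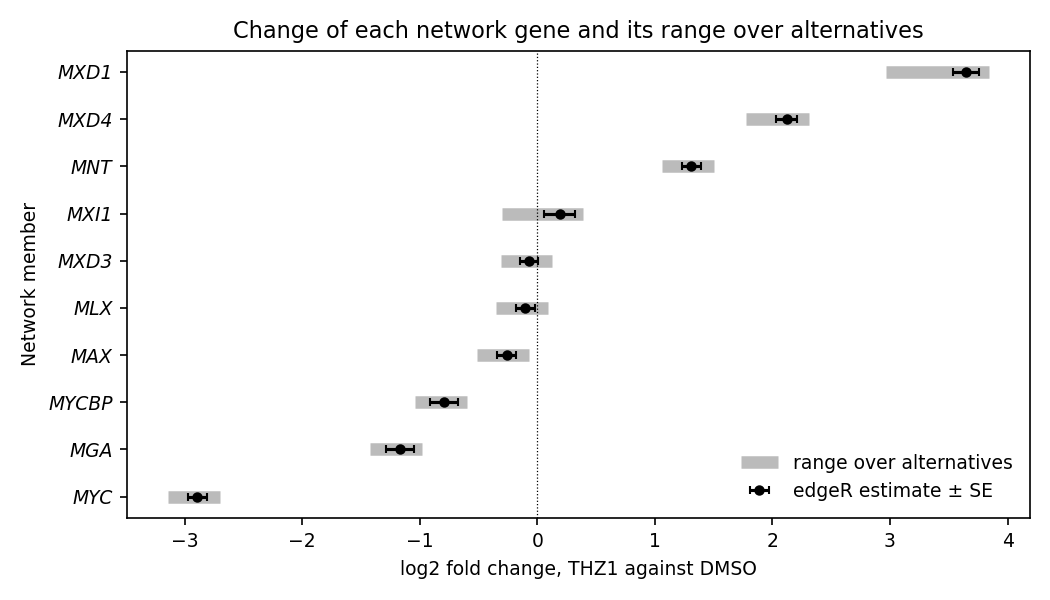
Log2 fold change of each network gene, THZ1 against DMSO, ordered from highest to lowest; dots with bars are the edgeR estimate and its standard error, and grey bands span the values over the alternative scalings, filters, tests, tables and left-out libraries. The bands of MXI1, MXD3 and MLX cross 0, whereas those of MXD1, MXD4, MNT, MYC, MGA, MYCBP and MAX do not.

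Since the scaling between libraries moved the small changes, each member was also set against MAX within its own library, as the log2 ratio of their counts, which needs no scaling. The smallest p that 3 libraries against 3 allow in the two-sided exact permutation test is 0.1, so no member could pass 0.05. Relative to MAX, MYC fell by 2.63 on the log2 scale, with ratios of 2.56 to 2.72 in the DMSO libraries and −0.22 to 0.12 in the THZ1 libraries. MXD1 rose by 3.93, MXD4 by 2.38 and MNT by 1.57 against MAX, each without overlap. MXI1, with a difference of 0.46, and MXD3, with 0.20, also lay higher against MAX in all THZ1 libraries, while MLX (0.16) overlapped and MGA (−0.91) and MYCBP (−0.53) lay lower. MAX itself was lower with THZ1 in the main fit (−0.26), which raises every ratio to it. The small differences of MXI1 and MXD3 are thus positions relative to MAX only.

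Levels of different genes can be compared only per length, for which the deposited log2 FPKM values were taken back to FPKM for the 9 members listed there. MGA was not analysed on this scale. Within each treatment the 3 libraries shared the same highest log2 value, 14.78 with DMSO and 14.64 with THZ1, and nearly the same medians, so the SDs here describe the deposited values and may not be the spread between replicates as sequenced. With DMSO the order was MYC (414 ± 23.5 FPKM, SD, n = 3), MXD3 (87.5 ± 6.91), MLX (54.2 ± 1.602), MAX (46.0 ± 1.89), MYCBP (25.7 ± 0.838), MNT (16.3 ± 0.140), MXD4 (8.79 ± 0.619), MXI1 (8.15 ± 0.936) and MXD1 (4.43 ± 0.502). MYC was at the top by a wide margin, and of the neighbours in this order only MXD4 and MXI1 overlapped between their libraries. With THZ1 the order was MXD3 (75.6 ± 1.98 FPKM), MYC (48.9 ± 3.74), MLX (47.0 ± 2.57), MXD1 (41.3 ± 1.30), MNT (36.8 ± 2.31), MAX (36.1 ± 1.87), MXD4 (32.4 ± 1.16), MYCBP (13.1 ± 0.982) and MXI1 (6.59 ± 0.664). Here MYC and MLX, and MNT and MAX, overlapped, so that 7 of the 9 transcripts lay between 32.4 and 75.6 FPKM on average. From the counts scaled by exon length, the order with DMSO was the same, but with THZ1 MYC stood at rank 5, overlapping MNT and MAX, instead of rank 2.

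**Figure D3:**
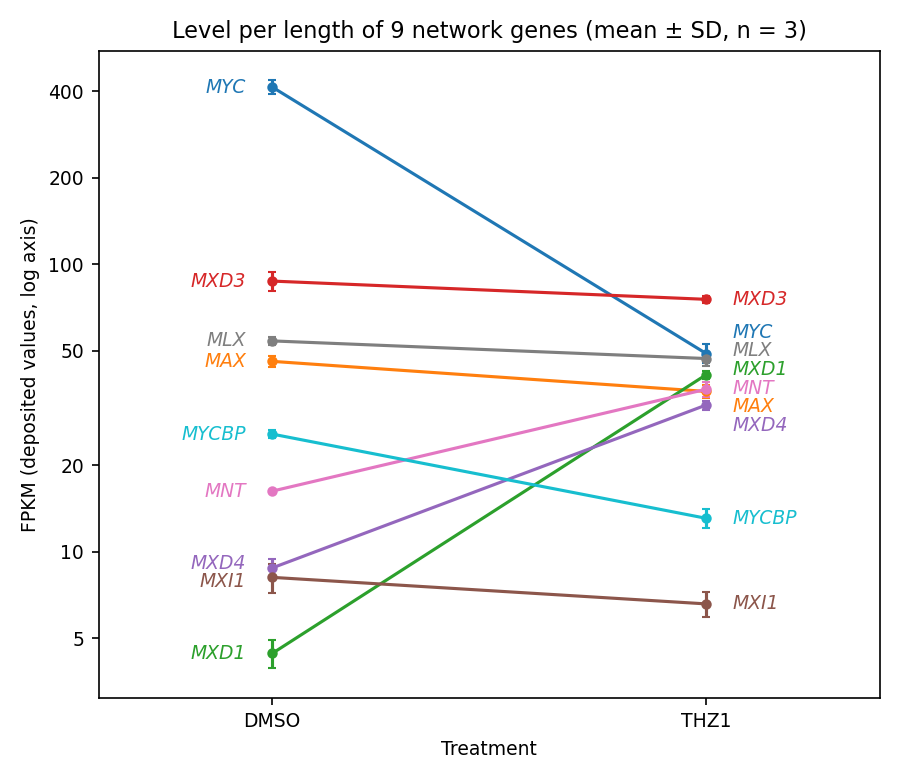
Level per length of the 9 network genes with deposited FPKM values, with DMSO at the left and THZ1 at the right, on a log axis; points are means of 3 libraries and bars are SDs. MYC falls from 414 to 48.9 FPKM into the range of the other members, and MXD1, MNT and MXD4 climb into the same range.

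Within each library, FPKM of MYC was divided by the sum of its 5 opponents, MXD1, MXD3, MXD4, MXI1 and MNT. The ratio was 3.40, 3.62 and 2.94 in the DMSO libraries and 0.231, 0.278 and 0.254 in the THZ1 libraries. MYC transcripts thus outnumbered those of the opponents in each DMSO library and were fewer in each THZ1 library, with a ratio of the means of 13.1. Against MAX, MYC was at 9.02 ± 0.837 with DMSO and 1.36 ± 0.165 with THZ1, and the summed opponents were at 2.72 ± 0.184 and 5.34 ± 0.258. The sum itself went from 125 ± 7.27 to 193 ± 3.82 FPKM, and its make-up changed. MXD3 gave 69.9% ± 1.56 of the sum with DMSO and 39.2% ± 1.52 with THZ1. MXD1 went from 3.56% ± 0.595 to 21.4% ± 0.314, MXD4 from 7.04% ± 0.500 to 16.8% ± 0.435 and MNT from 13.0% ± 0.884 to 19.1% ± 0.897. MXI1, the least of them with THZ1, went from 6.51% ± 0.526 to 3.42% ± 0.283. From the counts, scaled by exon length, the ratio of MYC to its opponents was 2.27 with DMSO and 0.182 with THZ1, a ratio of the means of 12.5. These are transcript ratios, and protein levels were not analysed here.

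Around the network, the genes of the corepressors that the opponents recruit moved both ways. Of the 16 SIN3-HDAC genes tested, 7 (43.75%) were higher and 6 (37.5%) lower, close to the 43.5% and 41.1% of all genes, with a median log2 fold change of 0.10. ING1 (log2 fold change 1.59) and ARID4A (1.54), subunits of the complex, were the highest, and RBBP7 (−1.02), a histone-binding chaperone, and SAP30 (−0.99) the lowest. The scaffolds SIN3B and SIN3A, chosen after their values were seen, went in opposite directions, at 0.43 and −0.44. In the PRC1.6 list, the partners of MGA, 8 of 12 genes (66.7%) were lower and 4 (33.3%) higher, against 41.1% and 43.5% of all genes, with a median of −0.55. L3MBTL2 (−1.12), a reader of chromatin, and CBX3 (−0.96), a heterochromatin protein, were the lowest, and the deacetylase HDAC1 (1.22), which is on both lists, and YAF2 (0.64) the highest. Of the 9 germline genes that PRC1.6 is known to silence, 3 passed the filter. STAG3 (−1.03) and SYCP3 (−1.19 ± 0.41, SE) were lower, and TDRKH (−0.02) was not called. The 2 lower genes are 66.7% of the 3 tested, beside 41.1% of all genes. SYCP3 held only 24, 17 and 37 counts with DMSO and 10, 5 and 6 with THZ1. It passed the filter through its DMSO libraries, where it is higher, so its fall is given as a value only. With DESeq2, 1 of these germline genes was lower. Of the genes named here, ING1, RBBP7, SAP30, SIN3A, CBX3, L3MBTL2, SYCP3 and TDRKH share exonic bases with genes on the opposite strand, up to 1363 in L3MBTL2, so their counts carry that uncertainty.

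The cofactors and the turnover genes of MYC moved both ways too. Of 14 cofactors, 5 (35.7%) were higher and 6 (42.9%) lower, beside 43.5% and 41.1% of all genes, with a median log2 fold change of 0.10. The acetyltransferase KAT2A (0.95) was among the highest, while ACTL6A (−1.75) and the ATPase RUVBL2 (−1.74) were the lowest. With upper quartile factors 8 cofactors were higher. Of 14 genes that act on MYC protein stability, 4 (28.6%) were higher and 8 (57.1%) lower, beside the same shares of all genes, with a median of −0.48. GSK3A (1.32) and GSK3B (1.21), the kinases that mark MYC for degradation, were the highest, whereas USP28 (−1.96), a deubiquitinase that protects MYC, and CIP2A (−1.29), which holds off its phosphatase, were the lowest. These 4 are only the ends of a list that mixes genes for and against MYC degradation. Of others, named after their values were seen, AXIN1 (−1.01), HUWE1 (−0.72) and BTRC (−0.54) were lower too, and USP36 (0.31) was higher. A change in MYC stability was not tested. KAT2A and GSK3A share 405 and 479 exonic bases with genes listed by identifier only on the same strand, and ACTL6A shares 123 with MRPL47 on the opposite strand.

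Target genes of MYC were mostly lower. Of 36 genes known to be activated by MYC, 27 (75.0%) were lower and 5 (13.9%) higher, with a median log2 fold change of −0.67, against 41.1% lower and 43.5% higher over all genes. HSPD1, a mitochondrial chaperonin, fell from 1154 to 169 CPM (−2.77 on the log2 scale), and LDHA, which makes lactate, from 655 to 106 CPM (−2.63). At the other end, the translation helicase EIF4A1 (2.41) and CCND2 (1.80), a G1 cyclin, rose from 10.4 to 55.1 CPM and from 1.52 to 5.31 CPM. EIF4A1 shares 2187 exonic bases with ENSG00000264772 on the same strand. On the opposite strand, CCND2 shares 162 with CCND2-AS1 and HSPD1 shares 135 with HSPE1, so the counts of all 3 are uncertain. Of the 10 genes known to be repressed by MYC, 6 passed the filter. Of these, 5 (83.3%) were higher, against 43.5% of all genes, with a median of 2.39 over the 6. GADD45A (3.94), a stress-response gene, and CDKN1A (3.14), which encodes the CDK inhibitor p21, were the highest. FTH1 (1.73), the ferritin heavy chain, was the lowest of those that rose, and NDRG2 (0.03) was not called. FTH1 shares 1267 exonic bases with BEST1 and NDRG2 shares 236 with TPPP2, both on the opposite strand, and their counts are uncertain as well. CDKN2B, CEBPA, CLU and THBS1 did not pass the filter. These targets also answer to other factors, and which of them moved with MYC was not tested.

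**Figure D4:**
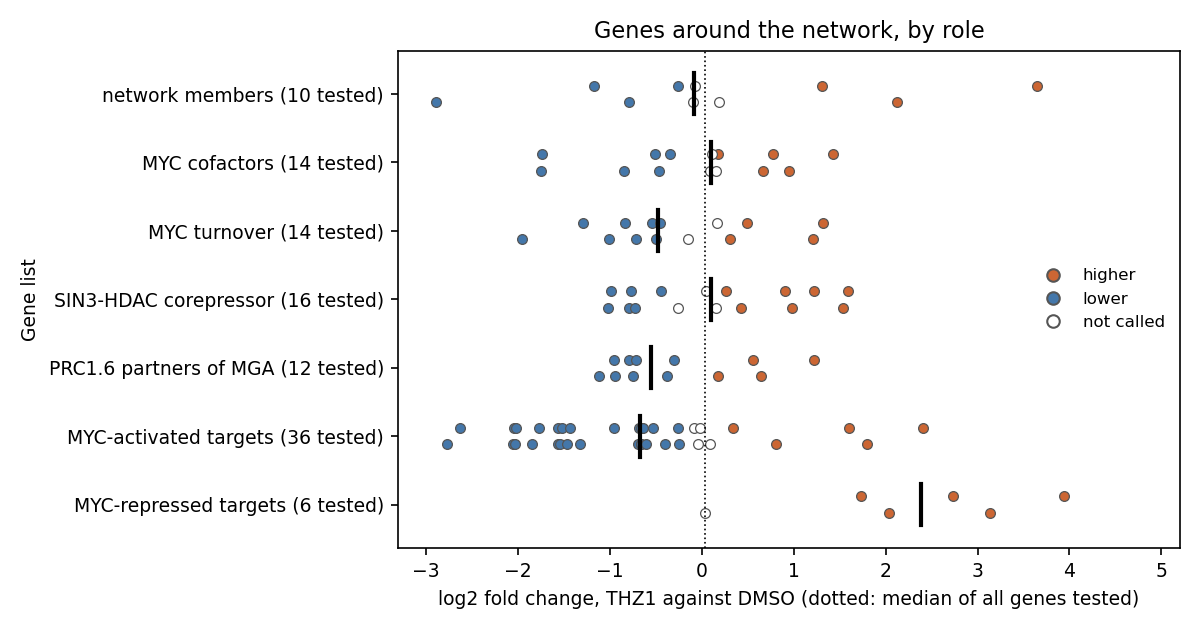
Log2 fold change, THZ1 against DMSO, of the network members and of 6 gene lists by role; each point is a gene tested, orange for higher, blue for lower and white for not called, and black bars are list medians. The list of MYC-activated targets lies mostly below the dotted median of all genes (0.03). Of the 6 MYC-repressed targets tested, 5 (83.3%) were called higher, against 43.5% of all genes.

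The genes whose log2 CPM profile over the 6 libraries, centred on its mean, lay closest to that of MYC were sought among 10156 genes with a mean of at least 10 CPM. Among the nearest were E2F1, a regulator of S phase entry, TRIM59, the uncharacterised ENSG00000257275 and KHK, a fructose kinase, with Euclidean distances of 0.144 to 0.167. For MXD1 the nearest were ENSG00000263823, RP11-375N15.2, DMWD, WDR97 and the zinc exporter SLC30A1, with distances of 0.241 to 0.300. With 2 treatments such likeness mostly reflects a like fold change, and the log2 fold changes of these genes ran from −2.92 to −2.83 around MYC and from 3.41 to 3.81 around MXD1.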

How the data were processed

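Raw counts per gene were deposited by the authors, who filtered the reads, mapped them to GRCh37 with STAR and used htseq-count; the gene annotation and strand setting are not given in the sources used here. A further deposited table holds log2 values, read as log2(FPKM + 1) with FPKM from RSEM per the methods, in which the libraries of one treatment share their highest value (14.78 or 14.64); how this arose is not given in the sources used here. The p-values, FDR and log2 fold changes that the authors deposited beside them were not used.

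Counts were filtered with filterByExpr (minimum 10, minimum total 15), scaled by TMM and tested with edgeR 4.0.16 (R 4.3.3), two-sided, with Benjamini-Hochberg adjustment over 16622 genes. Each SE was derived from the estimate and its F value. In log2 CPM a prior count of 2 was added. A count of 3, at most 0.253 CPM with DMSO and 0.415 CPM with THZ1, was taken as the floor, for counting error only. Positions, exon lengths and overlaps came from GENCODE 44 on GRCh37, and promoters from RefSeq (GRCh38.p14).

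The members and lists, written from general knowledge, were chosen with earlier results of these data known. Named were all members, the 2 highest and 2 lowest genes of each list with a mean of at least 1 CPM (short lists in full) and the 5 nearest profiles to MYC and MXD1. The ratio to MAX was added after the values were seen. A few genes that this rule or the marker lists would name are not reported here. TXNIP, TRAC and PECAM1 were not matched. Alternatives were other scalings, filters, a replicate block, left-out libraries, DESeq2 1.42.0 and limma 3.58.1 on the log2 FPKM values. The pipeline was also run on simulated counts in which few genes changed, up and down alike. That setting differs from these data, so it cannot test the scaling between treatments.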

Additional observations from a re-analysis of the deposited data

How the results depend on the processing

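The counts of 3 members higher and 4 lower stayed within 1.5 times under every alternative tried, and MYC (−3.14 to −2.70), MXD1 (2.97 to 3.84), MXD4 (1.77 to 2.31), MNT (1.06 to 1.51), MGA (−1.42 to −0.98) and MYCBP (−1.04 to −0.60) kept their direction and call. The limma fits on FPKM covered 9 members and left out MGA, which had 13 alternatives against 16 for each of the others. Against TMM, upper quartile factors moved the median over all genes by 0.19, and library sizes alone moved it by −0.25, beside changes of −0.07 for MXD3, −0.10 for MLX and 0.19 for MXI1. MXD3 was 0.002 with RLE factors, 0.13 with upper quartile factors and 0.067 under a strict filter (10 counts or more in each of the 6 libraries), and −0.164 to 0.001 with single libraries left out, at the upper end without DMSO replicate 3. MLX was 0.093 and 0.033 under the same upper quartile factors and strict filter. MXI1 was −0.053 with library sizes alone. In limma on the FPKM table it was −0.269, with a pseudocount of 0.1 it was −0.301, and with a mean FPKM of 1 or more it was −0.269. In those FPKM fits MXD3 (adjusted p = 0.0243 by limma) and MLX (0.0157) were called lower. The limma p-values rest on the spread of the deposited values, which may not be the spread between replicates as sequenced. MXD3 and MLX were also called lower with library sizes alone (edgeR adjusted p = 0.000294 and 0.000183), and MLX with no filter (0.0498). The call of MAX was lost with upper quartile factors (adjusted p = 0.399) and under the strict filter (0.113), while MXI1 was called higher under both (0.00817 and 0.0257). Past the fold threshold, 6445 genes were higher with DESeq2, 6996 with no filter and 1821 under the strict filter, where 1178 were lower. The ratio of MYC to its opponents was 2.27 with DMSO and 0.182 with THZ1 in length-scaled CPM, and 5 of 9 members then had the same rank by level with THZ1. Same-numbered libraries did not deviate together (correlations of −0.004, 0.001 and 0.021). With a replicate block 3 members were higher and 4 lower, and 13967 genes were called, 13944 of them among the 14050 called without it. The causes of these differences were not tested.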
